A study of Mus musculus with 4 samples.

Results

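The collagen genes were read from open chromatin of bile duct ligated mouse liver. They are the genes that the authors' peak annotation names by the pattern Col, a number, a, a number, and that have a promoter or distal ATAC peak on chromosomes 1 to 19, X or Y in at least 1 library. There were 40 of them among 25458 genes with such a peak. By the structure of their proteins, 10 were counted as fibrillar, 8 as basement membrane and 22 as other collagens. All 40 had a peak in the Mertk knockout (KO) library, and 25 had one in the wild-type (WT) library.

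The KO group was liver of Mertk knockout mice after bile duct ligation, and the WT group was liver of wild-type mice after the same operation. Both genotypes were thus ligated, and no unligated liver was analysed here. Mertk encodes a receptor tyrosine kinase that macrophages use to engulf dying cells. Each genotype had 1 ATAC library and 1 RNA library from the same nuclei, made with the 10x Multiome assay, in which a transposase cuts accessible DNA inside nuclei and barcodes tag the DNA and RNA of each nucleus. The labels give neither the number, sex nor age of the animals behind a library, nor the time after ligation, nor which part of Mertk was deleted. The study set out to compare gene expression and accessibility between the genotypes in a fibrosis model. With 1 library per genotype there was no replicate, so no test between genotypes was possible, and every difference describes these libraries.

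Collagens are extracellular matrix proteins whose chains wind into a triple helix. Fibrillar collagens such as I and III assemble into the fibres of scar tissue, and in injured liver they come mainly from activated stellate cells and portal fibroblasts. Collagen IV forms the meshwork of basement membranes. Its chains are encoded by gene pairs that lie head to head, so that the genes of a pair are read away from a common start region. Collagens XV and XVIII, the multiplexins, sit at the edge of basement membranes. The remaining collagens bind to the surface of fibrils (the FACIT collagens), form beaded filaments (collagen VI), or cross the cell membrane.

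The libraries differed in depth and in cell type markers. The KO library held 83996145 ATAC fragments in 5339 nuclei and 106319 peaks over 91.3 Mb, and the WT library held 40858512 fragments in 5828 nuclei and 72302 peaks over 61.8 Mb. The KO list was therefore 1.47 times as long. Of these fragments 46% lay in peaks in the KO library and 33.7% in the WT library, so fragments in peaks differed 2.8-fold. All 10 hepatocyte markers had a KO peak, while 5 of the 10, with Alb and Cps1 among them, had no WT peak (13% of all genes had none) although both tissues are labelled liver. That list held 94 KO and 16 WT peaks, and of its genes Ttr alone had more WT peaks, with 3 KO and 4 WT peaks. A list of 13 stellate cell and fibroblast markers without collagens held 78 KO and 34 WT peaks, and 5 of the 13 (Des, Lrat, Lum, Rgs5 and Colec11) were at 0 in the WT library alone. In that list Hgf had 10 KO and 14 WT peaks, Acta2 had 6 and 5, and Pdgfra had 8 and 6. Cholangiocyte markers had 51 KO and 15 WT peaks, endothelial markers 157 and 89, and macrophage markers 86 and 96. The part of depth and of these markers in the collagen results was not tested. Fewer cells of a type and less accessible DNA per cell cannot be told apart in such peak lists. Mertk itself had 13 KO and 10 WT peaks, with a promoter peak in each, which does not check the genotype because a deleted segment need not lie under a peak.

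The KO library held more peaks at collagen genes than the WT library, and the excess was larger than over all genes. Counting each peak once, the collagens had 295 KO and 134 WT peaks, a ratio of 2.2, against 105188 and 71726 peaks and a ratio of 1.47 over all genes. The fibrillar class stood at one end, with 70 KO and 19 WT peaks and a ratio of 3.68. The basement membrane class stood at the other, with 93 KO and 56 WT peaks and a ratio of 1.66. The other collagens lay between them, with 132 KO and 59 WT peaks and a ratio of 2.24. Mean peak widths were close to each other, 864 bp for KO and 871 bp for WT collagen peaks, and the summed length of collagen peaks was 255 kb in the KO and 117 kb in the WT library.

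Gene by gene, 37 collagens had more KO peaks, against 60.3% of all genes, and 1 collagen, Col19a1, had more WT peaks, against 16.2% of all genes. Col2a1 and Col8a2 had equal numbers. In the WT library 15 collagens had 0 peaks, which is 37.5% of the 40 against 13% of all genes, and in the KO library 0 collagens had none, against 2.14% of all genes. Those 15 were Col3a1, Col4a5, Col4a6, Col6a1, Col6a2, Col6a3, Col6a4, Col6a5, Col6a6, Col9a1, Col12a1, Col17a1, Col20a1, Col24a1 and Col28a1. They had between 1 and 10 KO peaks. A peak list holds no values below the caller's limit, so a gene at 0 may still have accessible DNA. Col7a1, Col9a3, Col10a1 and Col11a1 had no promoter or distal peak in either library.

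**Figure D1:**
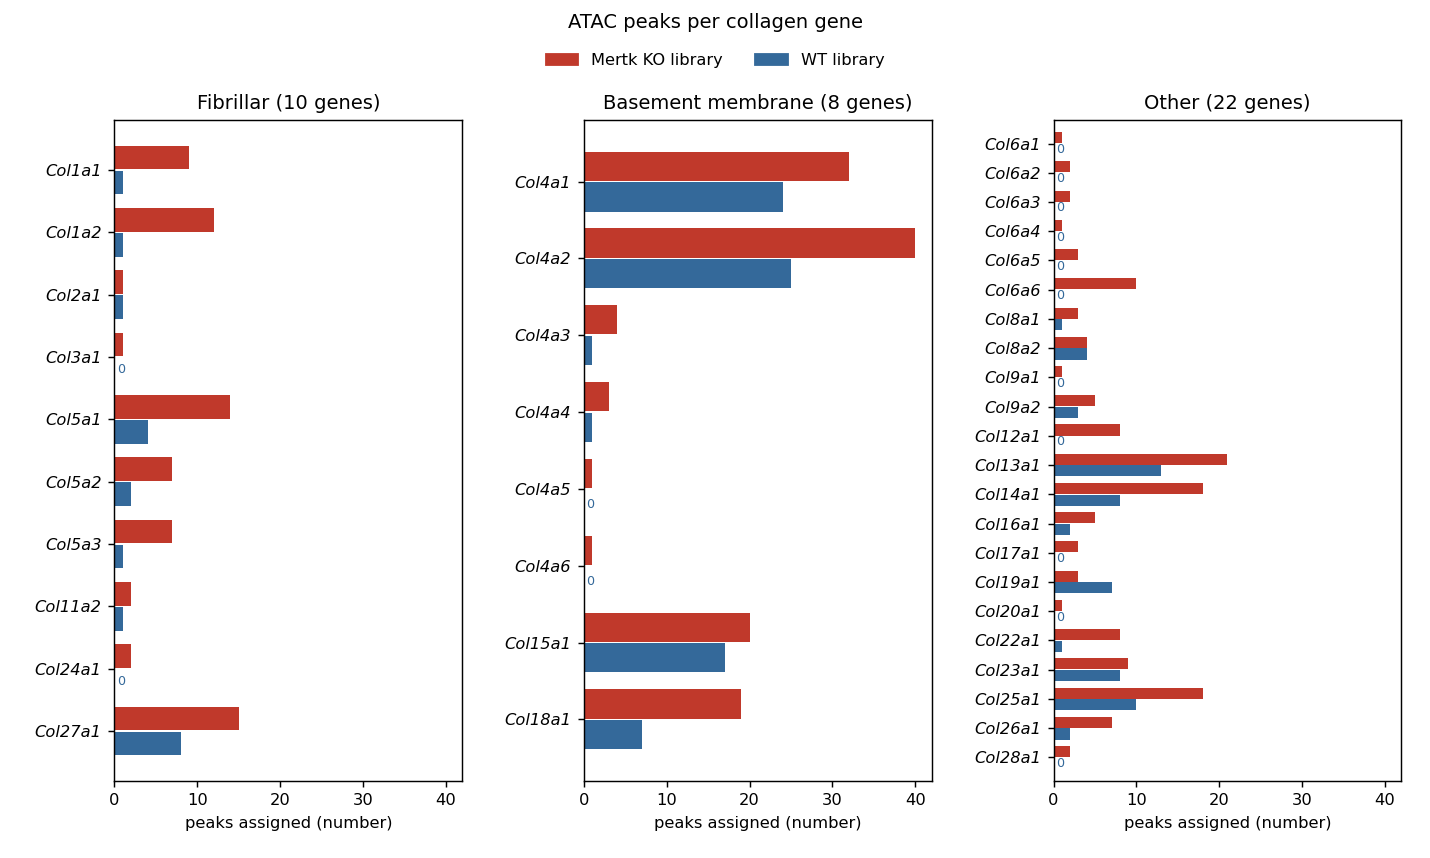
Number of ATAC peaks assigned to each of the 40 collagen genes, by class, in the Mertk KO library (upper bar of each gene) and the WT library (lower bar), with 1 library each and no error bars. The KO bar is the longer one for 37 genes, and a 0 marks the 15 genes without a WT peak. Peaks of a gene pair are drawn for both of its genes.

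Peaks were called separately in each library, so a peak was called shared when at least 1 bp of it lay under a peak of the other library. Of the KO collagen peaks 33.6% were shared (99 of 295, exact 95% interval 28.2 to 39.3%), against 49.5% of KO peaks over all genes. Of the WT collagen peaks 73.1% were shared (98 of 134, interval 64.8 to 80.4%), against 72.5% over all genes. The rest, 196 KO peaks and 36 WT peaks, were found in KO alone or in WT alone, against 50.5% of KO and 27.5% of WT peaks over all genes. For KO peaks the collagen interval lies below the share over all genes, and for WT peaks it contains that share. The KO share is bounded by the number of WT peaks, 134 for 295 KO peaks, against 71726 for 105188 over all genes. Its place below 49.5% thus restates the peak ratio of 2.2 and is not a separate result. Among distal peaks, 33.5% of KO collagen peaks were shared, against 43.7% over all genes, and 72.6% of WT collagen peaks, against 67.1%. The intervals cover counting error only, and neighbouring peaks are not independent.

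The classes differed in how many KO peaks were shared. In the fibrillar class 15.7% of KO peaks were shared (11 of 70, interval 8.11 to 26.4%) and 57.9% of WT peaks (11 of 19, interval 33.5 to 79.7%). In the basement membrane class 50.5% of KO peaks were shared (47 of 93, interval 40 to 61.1%) and 82.1% of WT peaks (46 of 56, interval 69.6 to 91.1%). In the other class the shares were 31.1% of KO peaks (41 of 132) and 69.5% of WT peaks (41 of 59). A KO share is limited by the number of WT peaks to be shared with, which was 19 for 70 KO peaks in the fibrillar class and 56 for 93 in the basement membrane class, so it restates in part the ratios of 3.68 and 1.66. The WT shares of these classes have intervals that overlap. The basement membrane share of KO peaks lay near the 49.5% of all genes. It rests in part on Col4a1 and Col4a2: without that pair 40.4% of 47 KO peaks and 69.2% of 26 WT peaks were shared, an alternative added after seeing the data.

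**Figure D2:**
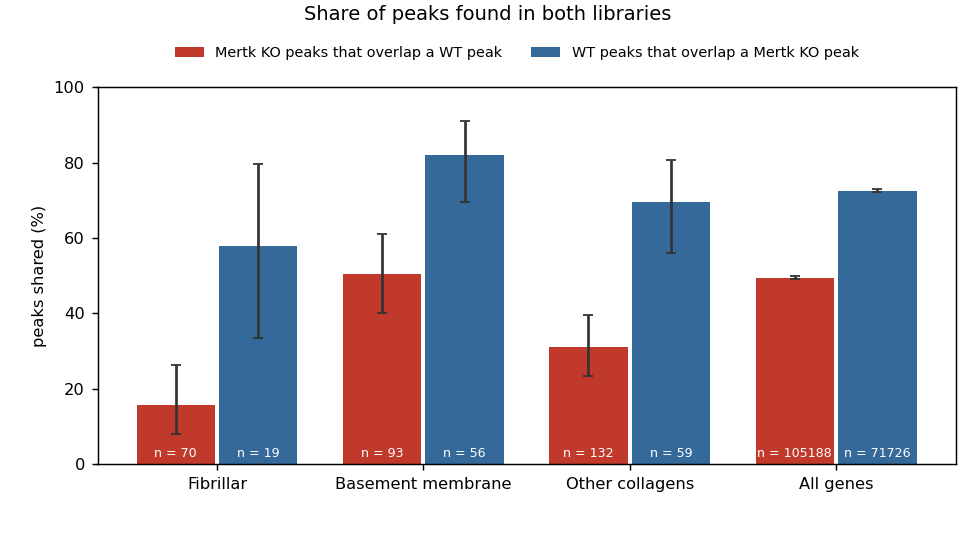
Percent of distinct peaks that overlap a peak of the other library, for Mertk KO peaks (left bar) and WT peaks (right bar) of each collagen class and of all genes; n is the number of peaks and error bars are exact 95% binomial intervals. KO fibrillar peaks are shared at 15.7%, basement membrane peaks at 50.5% and all KO peaks at 49.5%.

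Among the fibrillar collagens, the genes of collagen I had the largest centred ratios of accessible length, 2.17 for Col1a2 and 1.85 for Col1a1. That order depends on distant peaks. With peaks within 50 kb alone, Col1a2 stood at 1.35 and Col1a1 at 1.36, below Col5a3 at 1.56 and Col5a2 at 1.37. Col1a1 encodes the alpha1 chain of collagen I and lies on chromosome 11 (mm10, 94936224 to 94953042). It had 9 peaks over 7.70 kb in the KO library and 1 peak of 0.841 kb in the WT library. That WT peak lay inside the gene and was shared: the KO peak began 452 bp past the annotated start and the WT peak 532 bp past it. The annotation calls a peak a promoter peak from 1000 bp before to 100 bp after a start, so neither library had a Col1a1 promoter peak. Of the 8 peaks in KO alone, 2 lay inside the gene and 6 lay between 6760 and 69144 bp before its start.

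Col1a2 encodes the alpha2 chain of collagen I (chromosome 6, 4505618 to 4541543). It had 12 KO peaks over 9.31 kb and 1 WT peak of 0.741 kb. The WT peak was shared and centred 39.1 kb past the gene start, beyond the end of the gene. The other 11 KO peaks had no WT counterpart. They were 1 promoter peak, 1 peak just inside the gene, 1 past its end, 3 peaks centred 15.5 to 17.2 kb before the start and 5 peaks centred 86.4 to 108 kb before it. Both collagen I genes therefore had groups of upstream peaks in the KO library alone.

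The collagen V genes encode chains of a fibrillar collagen that is laid down with collagen I. Col5a1 had 14 KO and 4 WT peaks (12.4 and 3.63 kb), and both libraries had its promoter peak. Of these, 10 KO and 3 WT peaks are also assigned to other genes. Col5a3 had 7 KO peaks and 1 WT peak (5.93 and 0.812 kb), all inside the gene, with a promoter peak in KO alone. Col5a2 had 7 KO and 2 WT peaks (5.96 and 1.87 kb) and was the 1 collagen with peaks in both libraries but none shared. Its KO peaks included 1 that began 119 bp past the start, while both of its WT peaks lay 82292 and 104735 bp before it.

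The remaining fibrillar genes had fewer peaks, Col27a1 apart. Col27a1, which is active in cartilage, had 15 KO and 8 WT peaks, 4 of them shared in each library, and a promoter peak in both. Col3a1 encodes the chain of collagen III, the partner of collagen I in scars, and had 1 KO peak of 0.879 kb, 2231 bp past its start, and 0 WT peaks. Col24a1 had 2 KO and 0 WT peaks, with a promoter peak among the 2. Col11a2 had 2 KO peaks and 1 WT peak, and Col2a1, the main collagen of cartilage, had 1 shared peak in each library.

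The collagen IV genes Col4a1 and Col4a2 encode the chains of the common collagen IV network and form the pair with the most peaks of any collagen locus. They lie on chromosome 8 (Col4a1 11198423 to 11312889, Col4a2 11312805 to 11449287), and their RefSeq spans overlap by 85 bp. Every peak of the pair is assigned to several genes: to both collagens, or to 1 of them and a neighbouring Gm transcript. Counted once, the pair had 46 KO and 30 WT peaks, and 28 were shared in each library. Almost all WT peaks were thus found again, with 2 in WT alone and 18 in KO alone. The ratio was 1.53, near the 1.47 of all peaks. Without this pair the collagens had 249 KO and 104 WT peaks, a ratio of 2.39.

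The peaks in KO alone lay mostly over Col4a2. By the centre of each peak, the Col4a1 side of the Col4a2 start held 22 KO and 19 WT peaks, 18 of them shared in each library. The Col4a2 side held 24 KO and 11 WT peaks, 10 of them shared in each library. Thus 14 of the 18 peaks in KO alone were on the Col4a2 side. Per 100 kb of gene, Col4a1 held 19.2 KO and 16.6 WT peaks, and Col4a2 held 18.3 KO and 8.79 WT peaks. The shared start region lay under a peak of both libraries. The promoter sequences of both genes also hold a CCAAT (NF-Y) match, which lies outside the stretch shown. The Col4a1 start, at 11312889, lies outside it too. This stretch holds the start of Col4a2 with an Sp1 family match (GGGCGG, in capitals; chr8:11312801-11312830, GRCm38.p6, plus strand, RefSeq):
Col4a1/Col4a2: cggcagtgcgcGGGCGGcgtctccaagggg

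**Figure D3:**
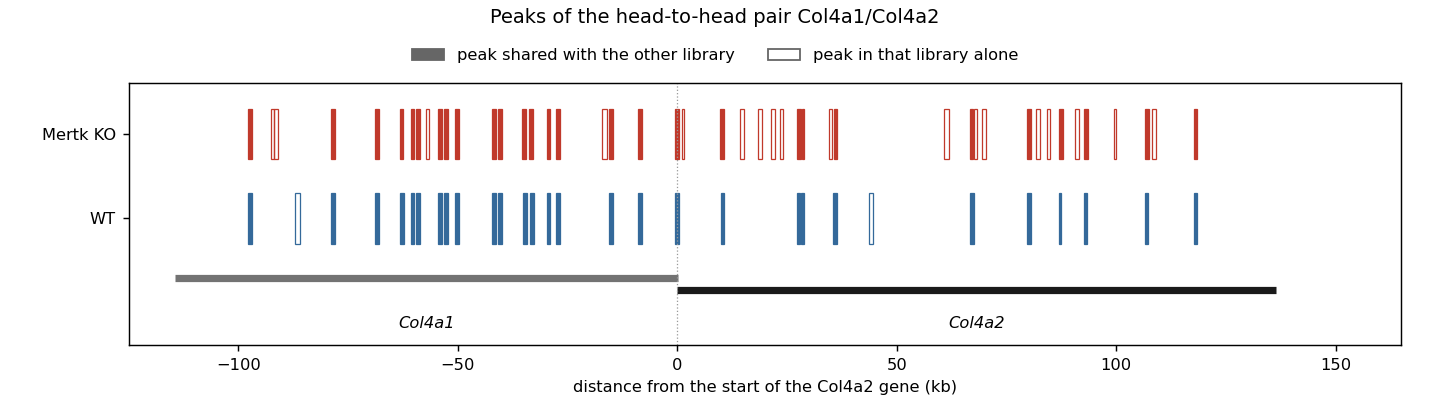
Peaks of the Col4a1/Col4a2 pair by distance in kb from the start of Col4a2, in the Mertk KO library (upper row) and the WT library (lower row); filled boxes are shared peaks, open boxes are peaks in that library alone, and bars below show the gene spans. Of the 18 open KO boxes, 14 lie right of the start, over Col4a2.

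The other collagen IV pairs encode chains of specialised basement membranes such as that of the kidney filter. Col4a3 and Col4a4 overlap by 114 bp at their starts on chromosome 1 and had 6 distinct KO and 2 WT peaks, with 1 promoter peak over both starts in KO alone. Col4a5 and Col4a6 lie 1274 bp apart on chromosome X and had 1 promoter peak each in the KO library and 0 WT peaks. All 6 collagen IV genes thus had a KO promoter peak, and Col4a1 and Col4a2 had a WT one.

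The multiplexins differed from each other. Col15a1 (chromosome 4) had 20 KO and 17 WT peaks, with 12 KO and 11 WT peaks shared, so its lists were of similar length but 8 KO and 6 WT peaks were not matched. Its promoter peak lay 95.8 kb inside the gene in both libraries, at an internal start. Col18a1 (chromosome 10), whose protein also yields the fragment endostatin, had 19 KO and 7 WT peaks, of which 5 were shared. The KO library alone had a second Col18a1 promoter peak, 52.6 kb inside the gene, and 13 further peaks, all of them inside the gene.

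**Figure D4:**
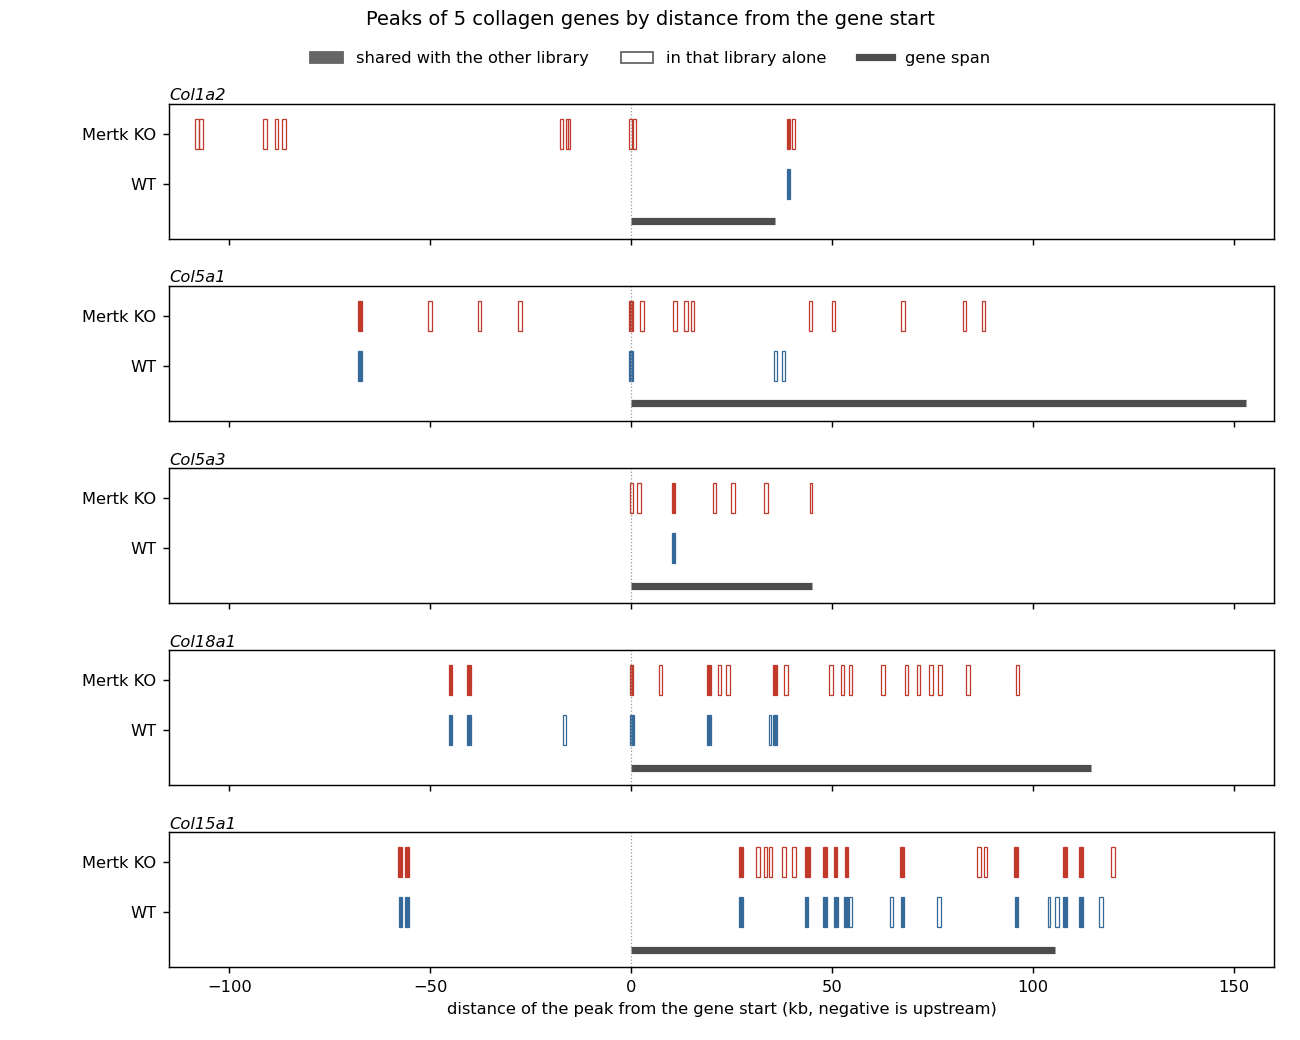
Peaks of Col1a2, Col5a1, Col5a3, Col18a1 and Col15a1 by distance in kb from the gene start along the direction of reading, in the Mertk KO library (upper row of each gene) and the WT library (lower row); filled boxes are shared, open boxes are in that library alone, and grey bars are gene spans. Col1a2 has 11 open KO boxes and 1 filled box in each library, while Col15a1 has boxes in both rows along the gene.

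Collagen VI, a beaded-filament collagen of the cell surroundings, was the family with peaks in 1 library alone. Its 6 genes had 16 distinct KO and 0 WT peaks. Col6a6 had 10 of these, 3 of them also assigned to Col6a5 and 2 to Pik3r4, with a promoter peak 18.9 kb inside the gene. Col6a1, Col6a2 and Col6a3, the chains of the main collagen VI trimer, had 1, 2 and 2 KO peaks, and Col6a4 had 1.

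The FACIT collagens had 49 KO and 21 WT peaks. Col12a1, which binds to collagen I fibrils, had 8 KO and 0 WT peaks, 5 of the 8 also assigned to neighbouring genes. Col22a1 had 8 KO peaks, 2 of them at promoters, and 1 WT peak, which was shared. Col14a1, another fibril-binding collagen, had 18 KO and 8 WT peaks, 5 of them shared in each library, and was the 1 collagen with a promoter peak in the WT library alone. Col19a1 had 3 KO and 7 WT peaks, and 5 of the WT peaks were in WT alone. Col16a1 had 5 KO and 2 WT peaks, both WT peaks shared, and Col9a2 had 5 KO and 3 WT peaks. Col9a1 and Col20a1 had 1 KO peak each and 0 WT peaks.

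The transmembrane collagens were nearer to the list of all genes, with 51 KO and 31 WT peaks, a ratio of 1.65. Col13a1 had 21 KO and 13 WT peaks, Col25a1 had 18 and 10, and Col23a1 had 9 and 8, with 10, 8 and 6 of them shared in each library. Col17a1, a component of epithelial attachment sites, had 3 KO and 0 WT peaks. The short-chain collagen genes had 3 KO peaks and 1 WT peak at Col8a1, and 4 in each library at Col8a2. Col26a1 had 7 KO and 2 WT peaks, and Col28a1 had 2 KO and 0 WT peaks.

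Accessible length, the summed length of a gene's peaks, was compared as a log2 ratio of KO over WT after 1 kb was added to each side as a pseudocount. The ratio was centred by subtracting 0.39, its median over the 14692 genes with a mean of at least 2 kb, which removes the 1.31-fold excess of the median gene in the KO library. Over all members of a class, whatever their length, the median centred ratio was 0.92 for fibrillar, 0.46 for basement membrane and 0.57 for other collagens. It was 0.52 for all 40 collagens and -0.02 for all 25458 genes, with the same centre throughout. Above the median gene lay 34 of 40 collagens, against 49% of all genes. The 15 collagens with 0 WT peaks are members through the KO library alone, so their ratios before centring had to be positive. They are 2 of 10 fibrillar, 2 of 8 basement membrane and 11 of 22 other collagens, and 13% of all genes had 0 WT peaks. With 1 KO peak each, Col4a5 stood at 0.48 and Col4a6 at 0.44, on either side of the basement membrane median. These medians and that count thus rest in part on how members were chosen.

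Of the 40 collagens, 23 reached the 2 kb minimum. Col6a6 and Col12a1 reached it through the KO library alone, so their ratios had to be positive. Col1a1, Col1a2, Col5a3, Col22a1 and Col4a3 had WT lengths of 0.741 to 0.931 kb. They could reach the minimum only with a longer KO length, so their ratios had to be positive too. Col5a1, with 3.63 kb in the WT library, was not bound in this way. The count of higher collagens and the medians of measured genes thus rest in part on this minimum. A collagen was counted as higher at a ratio of 1 or more and as lower at -1 or less, limits of size without a test. Higher were 7 of the 23, against 10.3% of all genes measured: Col6a6 at 2.95, Col12a1 at 2.45, Col1a2 at 2.17, Col1a1 at 1.85, Col22a1 at 1.61, Col5a3 at 1.54 and Col5a1 at 1.14. Lower was 1, Col19a1 at -1.26, against 4.08% of genes measured. Just inside the limit was Col5a1, and just outside it were Col18a1 at 0.96 and Col4a3 at 0.92. Of the basement membrane genes 0 of 5 measured reached it. Without centring 11 of the 23 were higher, against 19.6% of all genes measured, and 0 lower, against 1.34%, with Col18a1 at 1.36, Col4a3 at 1.31 and Col19a1 at -0.87.

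The genes nearest to the median gene were Col4a1 at -0.05, Col9a2 at 0.11, Col15a1 at -0.18, Col13a1 at 0.21, Col23a1 at -0.21 and Col4a2 at 0.27. Without centring Col4a1 stood at 0.34, Col15a1 at 0.22, Col23a1 at 0.18 and Col8a2 at 0.10, so the sign of these genes depends on it. Between the nearest genes and the limit lay Col8a2 at -0.29, Col27a1 at 0.40, Col25a1 at 0.47, Col16a1 at 0.53, Col14a1 at 0.60, Col5a2 at 0.89 and Col26a1 at 0.91. Without peaks that are assigned to several genes, Col12a1 stood at 1.51, Col6a6 at 2.21 and Col5a1 at 1.15.

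**Figure D5:**
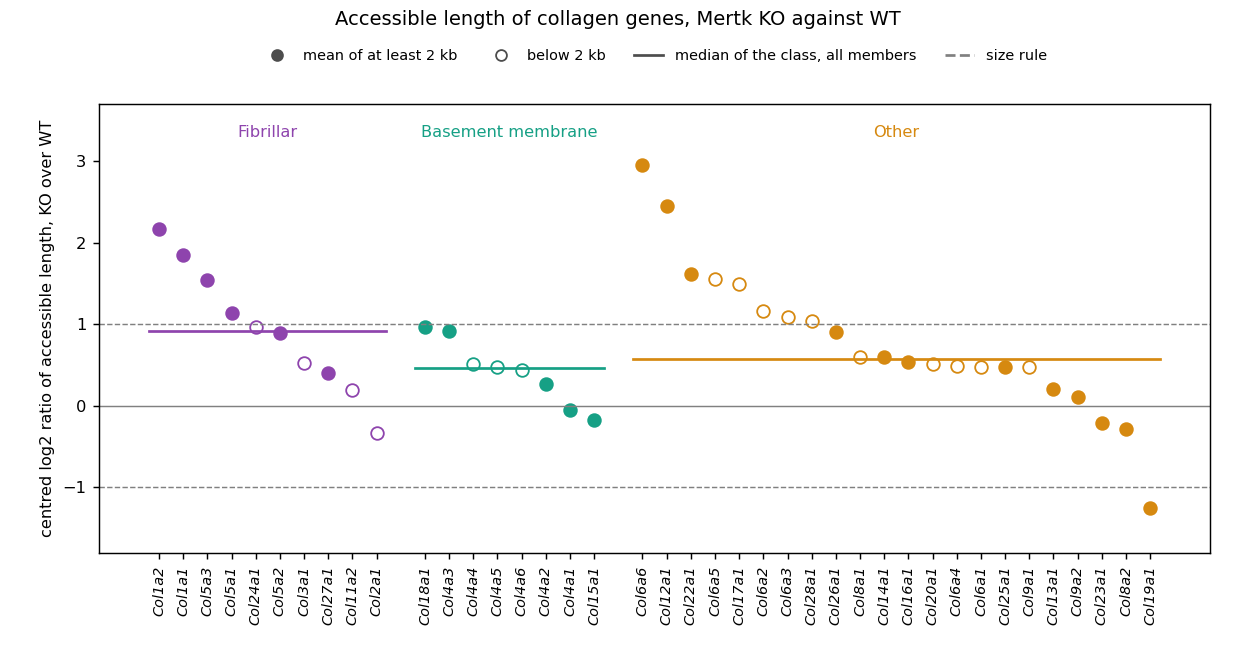
Centred log2 ratio of accessible length, Mertk KO over WT, for each collagen gene by class; filled points are genes with a mean of at least 2 kb, open points are below it, class lines mark the median over all members, and dashed lines mark the size limits. The fibrillar median is 0.92, the basement membrane median 0.46 and the median of the others 0.57, with Col6a6 highest at 2.95 and Col19a1 lowest at -1.26. The 15 genes with 0 WT peaks had to be positive before centring.

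Promoter peaks were found for 22 collagens. In both libraries they were found for 9 of the 22, Col4a1, Col4a2, Col5a1, Col15a1, Col16a1, Col18a1, Col23a1, Col25a1 and Col27a1, against 81.4% of all genes with a promoter peak. In KO alone they were found for 12 of the 22, against 15.4% of genes: Col1a2, Col5a3 and Col24a1 among the fibrillar genes, Col4a3 to Col4a6 among the basement membrane genes, and Col6a2, Col6a6, Col8a2, Col13a1 and Col22a1. In WT alone it was 1, Col14a1, against 3.17%. Counted as peaks, 8 of 23 KO promoter peaks were shared (34.8%, interval 16.4 to 57.3%), against 78.9% of all KO promoter peaks, and 8 of 10 WT promoter peaks, against 93.5% of all WT promoter peaks. With 10 WT promoter peaks for 23 KO ones, a KO share near 78.9% could not be reached. Over all genes there were 14691 WT for 17419 KO promoter peaks. The low KO share thus restates these numbers of peaks. The remaining 18 collagens, with Col1a1, Col3a1 and Col5a2 among them, had no promoter peak in either library.

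Promoter sequences from RefSeq (GRCm38.p6), which run from 250 bp before to 50 bp after a start, were given for 32 of the 40 collagens in 35 windows. No sequence is shown for Col1a1, Col2a1, Col4a3, Col5a2, Col12a1, Col14a1, Col22a1 or Col26a1. Of the 35 windows, 20 were touched by a KO peak (57.1%) and 8 by a WT peak (22.9%), against 48.5% and 41.9% of all 32851 windows. The 8 windows with a WT peak all had a KO peak too. The stretches that follow run from 150 bp before to 30 bp after the outermost RefSeq start of genes whose promoters differed between the libraries, and of Col3a1, which had a peak at its start in neither. Capitals mark matches to motifs searched on both strands: TGANTCA (AP-1), CCAAT (NF-Y), GGGCGG (Sp1 family), GGAATG (TEAD), TTGGC and GCCAA spaced by 5 bases of any kind (NFI) and TGTTTAC (forkhead). CCAAT can overlap the end of the NFI motif.
Col1a2: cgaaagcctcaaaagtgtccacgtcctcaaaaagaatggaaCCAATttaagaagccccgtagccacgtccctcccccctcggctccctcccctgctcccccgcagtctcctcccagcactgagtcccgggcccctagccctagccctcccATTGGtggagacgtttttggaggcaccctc
Col5a3: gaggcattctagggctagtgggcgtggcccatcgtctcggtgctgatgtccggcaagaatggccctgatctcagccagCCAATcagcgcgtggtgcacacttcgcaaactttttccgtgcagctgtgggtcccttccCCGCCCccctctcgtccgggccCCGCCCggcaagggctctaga
Col4a5: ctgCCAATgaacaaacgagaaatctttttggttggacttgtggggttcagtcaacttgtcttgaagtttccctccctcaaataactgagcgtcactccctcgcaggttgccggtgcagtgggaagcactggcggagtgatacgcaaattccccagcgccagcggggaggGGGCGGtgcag
Col4a6: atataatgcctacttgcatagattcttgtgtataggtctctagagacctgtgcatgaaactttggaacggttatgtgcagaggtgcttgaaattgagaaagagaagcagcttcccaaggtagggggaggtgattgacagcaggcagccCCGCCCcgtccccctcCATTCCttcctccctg
Col3a1: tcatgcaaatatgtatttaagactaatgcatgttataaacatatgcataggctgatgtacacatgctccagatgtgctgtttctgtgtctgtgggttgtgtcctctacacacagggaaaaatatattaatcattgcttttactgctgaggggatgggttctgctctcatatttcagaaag

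These lie at chr6:4505468-4505647 (plus strand, Col1a2), chr9:20815088-20815267 (minus, Col5a3), chrX:141475220-141475399 (plus, Col4a5), chrX:141474066-141474245 (minus, Col4a6) and chr1:45311388-45311567 (plus, Col3a1). In the Col1a2 stretch CCAAT begins 109 bp before the start, and its reverse, ATTGG, begins at the start itself. The Col5a3 stretch has a CCAAT 72 bp before the start and 2 reverse Sp1 family matches, and those of Col4a5 and Col4a6 have 1 Sp1 family match each. The Col4a5 stretch also has a CCAAT 147 bp before the start, and that of Col4a6 a reverse TEAD match, CATTCC. The Col3a1 stretch has 0 matches, but the full Col3a1 window holds a TEAD match outside the stretch. The full Col1a2 window likewise holds an Sp1 family match outside the stretch shown.

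Over the 35 collagen windows, the Sp1 family motif was found in 60%, against 35.7% of all windows. It was in 8 of 8 windows touched in both libraries and in 8 of 12 touched in KO alone. Over all genes it was in 58.6% of the 16505 windows touched by a peak of either library. Of the collagen windows touched in neither, it was in 5 of 15. The Col4a1 and Col4a2 windows overlap, and both are among the 8 touched in both libraries. CCAAT was found in 31.4% of collagen windows, against 37.4% of all windows. It was in 5 of 8 windows touched in both libraries, 3 of 12 touched in KO alone and 3 of 15 touched in neither. The TEAD motif was in 5 collagen windows (14.3%, against 14.7% of all windows), the AP-1 and forkhead motifs in 1 each (both that of Col6a1, 2.86%, against 7.81% and 3.65% of all windows), and the NFI motif in 0, against 0.0365% of all windows. A match describes letters and is not evidence of binding.

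The peak ratios of the genes that process collagen lay below the 2.2 of the collagens. The 21 genes for modification, folding and export of procollagen in the endoplasmic reticulum had 113 KO and 91 WT peaks, a ratio of 1.24, below the 1.47 of all genes. A promoter peak was found in both libraries for 19 of them, in KO alone for 1 and in WT alone for 0. Over all genes with a promoter peak the shares were 81.4%, 15.4% and 3.17%. Of the 16 measured, 1 was higher and 0 lower, and over all genes measured 10.3% were higher and 4.08% lower. That gene was Plod2, a lysyl hydroxylase for telopeptides, with 5 KO peaks and 1 WT peak and a centred log2 ratio of 1.13. P4ha3, a prolyl 4-hydroxylase subunit, had 4 KO peaks and 1 WT peak and a ratio of 0.98, and P3h3, a prolyl 3-hydroxylase family member, had 3 KO and 4 WT peaks and a ratio of -0.76. The promoter peak found in KO alone was that of Fkbp10, a chaperone of procollagen, which had 2 KO and 0 WT peaks.

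The 13 genes for procollagen cleavage and cross-linking had 85 KO and 43 WT peaks, a ratio of 1.98, above the 1.47 of all genes. Of the 9 measured, 1 was higher and 1 lower, against 10.3% and 4.08% of all genes measured, from which nothing is read at these numbers. Adamts2, which cuts the N-propeptide off procollagen I, was the higher one, with 19 KO peaks and 1 WT peak and a ratio of 2.80. Tll2, a tolloid-like protease, was the lower one, with 3 KO and 6 WT peaks and a ratio of -1.17. Loxl3, a lysyl oxidase that cross-links fibrils, had 3 KO and 4 WT peaks and a ratio of -0.72. A promoter peak in KO alone was found for 4 of the 10 genes with a promoter peak, against 15.4% of all such genes: Adamts2, Tll1, Loxl1 and Lox. Of these, Loxl1, also a lysyl oxidase, had 5 KO and 0 WT peaks, and Lox had 3 in each library.

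The 9 collagen receptor genes had 81 KO and 66 WT peaks, a ratio of 1.23, below the 1.47 of all genes. Of the 8 measured, 2 were higher and 0 lower, against 10.3% and 4.08% of all genes measured. Ddr2, a receptor kinase for fibrillar collagens on mesenchymal cells, had 10 KO peaks and 1 WT peak, a ratio of 1.95 and a promoter peak in KO alone. Itga11, the integrin alpha11 chain of fibroblasts, had 5 KO peaks and 1 WT peak and a ratio of 1.08. Ddr1, the epithelial relative of Ddr2, had 4 KO peaks and 1 WT peak and a ratio of 0.85. Gp6, the collagen receptor of platelets, had 0 KO and 4 WT peaks and did not reach the minimum.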

How the data were processed

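Nuclei of frozen liver were read by 10x Multiome with paired 150 bp reads and 10000 nuclei aimed for, per the labels' protocols. Per the file headers, each library was processed by the authors with cellranger-arc 2.0.2 on mm10, with peak calling settings not given in the sources used here. Deposited peaks carry a position but no score, and the deposited annotation assigns peaks to genes with a distance in bp, at most 200 kb. The deposited barcode tables hold raw counts per barcode, which the authors did not normalise, judging from their whole values, and gave the nuclei and fragments. Expression of single genes was not analysed here.

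From these files, peaks were counted once per class, those on other contigs (44 KO, 43 WT) were left out, and shares carry exact Clopper-Pearson 95% intervals. Genes were matched to RefSeq (GRCm38.p6) by symbol, and coordinates and promoter sequences come from it. Peak counts and lengths depend on the depth of calling. Summed length and mean width are given for all collagen peaks together, and they do not correct for depth. The members, lists and motifs were chosen with earlier results of these data known. Named in full are, per class, the 4 collagens with the largest absolute ratio, the 2 nearest 0, and any at 0 peaks or with a promoter peak in 1 library alone. Of the other lists the 3 measured genes with the largest absolute ratio and any with a promoter peak in 1 library alone are named. Gp6 and the sequences of Col5a3, Col4a5 and Col4a6 were chosen after their values were seen. Alternatives were another pseudocount, no centring, other minimums and limits, promoter or distal peaks alone, peaks of 1 gene, peak numbers, a distance of 50 kb, a width of 500 bp and a stricter overlap. Tables were computed with pandas 2.3.3, scipy 1.17.1 and numpy 2.4.6 under Python 3.11.15, and plots with matplotlib 3.10.9. Overlaps were checked against bedtools 2.31.1, and the ratios were tested on simulated data.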

Additional observations from a re-analysis of the deposited data

How the results depend on the processing

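No paired analysis was possible because each genotype had 1 library, and no library could be left out. A median was taken as moved when its printed value changed at all, a count when it changed by more than 1.5 times, and a share when it left its exact interval. On these unequal terms, 67 of 123 alternative values stayed the same, 55 moved and 1 changed sign. The 1 that changed sign was the basement membrane median of the measured genes, at 0.27 with all peaks and -0.25 with peaks of 1 gene alone, a setting that removes every Col4a1 and Col4a2 peak. The fibrillar median stayed the highest of the classes under all settings except promoter peaks alone.

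Over measured genes, the median centred log2 ratio of all collagens was 0.60. It was 0.62 with a pseudocount of 0.5 kb, 0.99 without centring, 0.54 with no minimum (40 genes, centred on the median of all 25458), 0.45 with a 4 kb minimum, 0.05 for promoter and 0.72 for distal peaks alone, 0.77 for peaks of 1 gene, 0.66 for peak numbers, 0.55 within 50 kb, and 0.89 without Col4a1 and Col4a2, an alternative added after seeing the data. In the same order the fibrillar median was 1.34 and became 1.53, 1.73, 0.94, 1.47, 0.23, 1.33, 1.36, 1.38 and 1.36, and it was 1.11 with a pseudocount of 2 kb. The basement membrane median became 0.23, 0.66, 0.48, 0.09, 0.49 and 0.24 over the settings up to distal peaks, then 0.24 for peak numbers, 0.09 within 50 kb and 0.32 with a pseudocount of 2 kb. The median of the others was 0.50 and became 0.52, 0.89, 0.58, 0.45, 0.00, 0.67, 0.40, 0.48 and 0.21 in the first order, 0.45 with a pseudocount of 2 kb and 0.53 with peaks of at least 500 bp.

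The count of higher collagens was 7 of 23, against 10.3% of all genes. It was 11 without centring (19.6% of all genes), 12 of 40 with no minimum (11.3%), 4 of 15 with a 4 kb minimum (8.58%), 1 for promoter peaks alone (1.67%), 13 with a limit of 0.5 (23.5%) and 3 with a limit of 2 (3.23%). It was 10 with a pseudocount of 0.5 kb (13.6%), 10 for peaks of 1 gene (11.2%) and 9 for peak numbers (11.3%), and 7 under the others. The 1 lower collagen, against 4.08% of all genes, became 0 without centring, for promoter peaks alone, within 50 kb and with a limit of 2 (1.34%, 0.177%, 4.25% and 0.231% of all genes). Among promoter peaks alone, 33.3% of 6 fibrillar and 37.5% of 8 basement membrane KO peaks were shared, and 100% of 2 fibrillar and of 3 basement membrane WT peaks. Shares of all peaks stayed within their intervals under an overlap of 50% of each peak, peaks of at least 500 bp and counting a peak for each of its collagens. Without Col4a1 and Col4a2, also added after seeing the data, 28.5% of KO and 67.3% of WT collagen peaks were shared, and in the basement membrane class 40.4% of KO and 69.2% of WT peaks, the last below its interval. Few peaks per gene and 1 library per genotype limit every value.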

Other observations

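The WT collagen peaks were concentrated in few loci. The 4 loci with the most WT peaks, Col4a1/Col4a2, Col15a1, Col13a1 and Col25a1, held 105 of 295 KO peaks (35.6%) and 70 of 134 WT peaks (52.2%). The Col4a1/Col4a2 pair alone held 15.6% of KO and 22.4% of WT collagen peaks. Shared collagen peaks lay at nearly the same place in both libraries: the centre of a shared KO peak was a median of 40.5 bp from that of its WT partner, against 37 bp over all genes.

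Fibrillar peaks had the smallest share inside a gene they are assigned to among the classes in both libraries. A peak assigned to both genes of a pair counted as inside when it lay in either. Gene spans ran from 16.8 kb (Col1a1) to 259.5 kb (Col24a1) in the fibrillar class. In the basement membrane class they ran from 105.5 kb (Col15a1) to 308.7 kb (Col4a6). The part of span length in these shares was not tested, and the share over all genes was not computed. Inside the RefSeq gene span lay 61.4% of the 70 KO and 68.4% of the 19 WT fibrillar peaks, 92.5% of the 93 KO and 83.9% of the 56 WT basement membrane peaks, and 79.5% of the 132 KO and 83.1% of the 59 WT peaks of the others. Collagen promoter windows were rich in G and C, with a median of 60% against 52.7% of all windows. The median was 70.7% for the 8 windows touched in both libraries, 61.3% for the 12 touched in KO alone and 55.7% for the 15 touched in neither.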
